A study of Mus musculus with 6 samples.

Results

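Integrin receptors are described here through 10 of their subunit genes, which were taken by symbol from a table of 22081 genes. They are the 7 α subunits Itga1, Itga3, Itga5, Itga6, Itga7, Itga9 and Itgav and the 3 β subunits Itgb1, Itgb5 and Itgb8. All 10 had a row and all 10 passed the filter on low values (a mean of at least 5 over the 6 libraries).

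Integrins are made of 1 α and 1 β subunit, and bind proteins of the extracellular matrix outside the cell and, through talin and kindlin, the actin cytoskeleton inside it. The α subunit largely sets the ligand. Subunits such as α1 bind collagens, α3, α6 and α7 bind laminins of the basal lamina, and α5 and αv bind proteins that carry the tripeptide Arg-Gly-Asp (RGD), such as fibronectin and vitronectin. In muscle stem cells (MuSCs), which lie between the myofibre and its basal lamina, integrin-α7 is a surface marker used to isolate the cells, and integrin-β1 is the partner of most α subunits.

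Freshly isolated MuSCs were profiled by RNA-seq in control mice and in mice in which Taf4a, the former name of Taf4, was deleted (Taf4asKO), with 3 libraries per group. TAF4 is a subunit of TFIID, the general transcription factor that binds core promoters. Taf4asKO mice carried Pax7CRE-ERT and 2 floxed Taf4a alleles and were given tamoxifen, so that recombination depended on the Pax7 locus being active. The control libraries are titled WT and have the genotype label Control. The study describes its control mice as littermates with Taf4a fl/fl, either without or with the Cre allele, and also lists wild type C57BL/6 mice, and which of these gave each control library is not given in the sources used here. Animals were adult, of both sexes and on a C57BL/6 background. The study gives a range of ages and of times after tamoxifen, and not the age, the sex or the number of animals behind a library. MuSCs were sorted as Sca1-/CD45-/CD31- cells that were either integrin-α7+ by antibody or fluorescent for a Pax7-zsGreen reporter. Which of the 2 gates gave these libraries is not stated, and integrin-α7 is itself the product of a gene described below. The study describes its replicates as biological, and the p-values measure the spread between these libraries.

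Values are normalized counts, that is, reads that the authors scaled with 1 size factor for each library and then rounded. Libraries summed to between 12338676 and 14551732 normalized counts, and the median log2 fold change over all 18562 genes tested was 0.0040. The 12 MuSC markers summed to between 63947 and 70923 in control and between 55894 and 60123 in Taf4asKO. Of them, 3 passed the test lower (Myf5, Fgfr4 and Cdh15) and 3 higher (Msc, Heyl and Hey1), all named after their values were seen. That is 50% of the list, against 12.6% of all genes tested. Pax7, named after its values were seen, had between 10363 and 13007 in every library and did not pass (log2 fold change -0.21, limma adjusted p = 0.161). Taf4, the targeted gene, had 613, 534 and 478 normalized counts in the control libraries and 631, 565 and 574 in Taf4asKO (log2 fold change 0.13, limma adjusted p = 0.524, and between 0.04 and 0.22 on the log2 scale with 1 library left out). These values sum all exons of the gene, those outside the deletion included, and so do not check the labels. By RT-qPCR and western blot, the study reported that Taf4a mRNA and protein were almost entirely lost in Taf4asKO MuSCs. The whole-gene values here did not show such a loss. Genes of other cell types were also present. Schwann cell markers summed to 3057, 5551 and 4574 in control and to 6794, 7898 and 7488 in Taf4asKO. Of the 8, 6 passed the test, all higher (75%, against 12.6% of all genes tested). Of the immune markers, Ptprc, which encodes CD45, had no row in the table. In bulk RNA, fewer cells of a type and less RNA per cell cannot be told apart.

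Because TAF4 acts at promoters, the 250 bases before the RefSeq start of each gene were examined (GRCm38.p6, the build of the table's mm10 coordinates). RefSeq windows were matched for 8 of the 10 genes. The sequences shown belong to the genes with the 2 largest fold changes. The Itga1 window is chr13:115101965-115102214, and the stretch around the CCAAT box of Itgb8 is chr12:119238386-119238415, both on the minus strand and written 5′ to 3′. Capitals mark the CCAAT letters.
Itga1: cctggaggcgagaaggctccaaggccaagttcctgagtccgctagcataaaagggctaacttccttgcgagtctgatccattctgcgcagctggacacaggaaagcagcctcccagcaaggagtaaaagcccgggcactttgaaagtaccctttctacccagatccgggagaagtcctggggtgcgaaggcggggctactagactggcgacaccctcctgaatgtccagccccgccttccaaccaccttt
Itgb8: gtctcctctcccgCCAATcggaacgctgcc

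Both strands were searched for the CCAAT box (spelled CCAAT), for the GC box (spelled GGGCGG) and for the TATA box (spelled TATAAA). None of these letters occurred in the Itga1 window, whose GC content was 57.6%. The CCAAT of Itgb8 began 126 bases before the RefSeq start, in a stretch that the GENCODE annotation places in the first exon. Itgb1 had 1 GC box, Itga5 had 2 and Itgb5 had 3. Itga3, with 2 RefSeq starts, had 3 GC boxes in 1 window and 1 GC box and 1 CCAAT box in the other. The second Itga3 start lies inside the gene. Itgav had none of the 3 motifs. The RefSeq window matched for Itga9 also belongs to a start inside the gene, far downstream of the gene start given below, and held none of them. A CCAAT box was found in 33.8% of 32851 promoter windows of this length, a GC box in 32.7% and a TATA box in 12.4%.

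Of the 10 integrin genes, 3 passed the threshold (a limma adjusted p under 0.05 together with a 1.3-fold change or more), against 12.6% of all genes tested. Itga1 and Itgb8 rose, as did 5.93% of all genes tested, and Itga7 fell, as did 6.71%. The libraries of the 2 groups did not overlap for 6 of the 10 genes, against 33% of all genes. The median log2 fold change of the 10 genes was 0.28, with 7 estimates above 0 and 3 below.

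**Figure D1:**
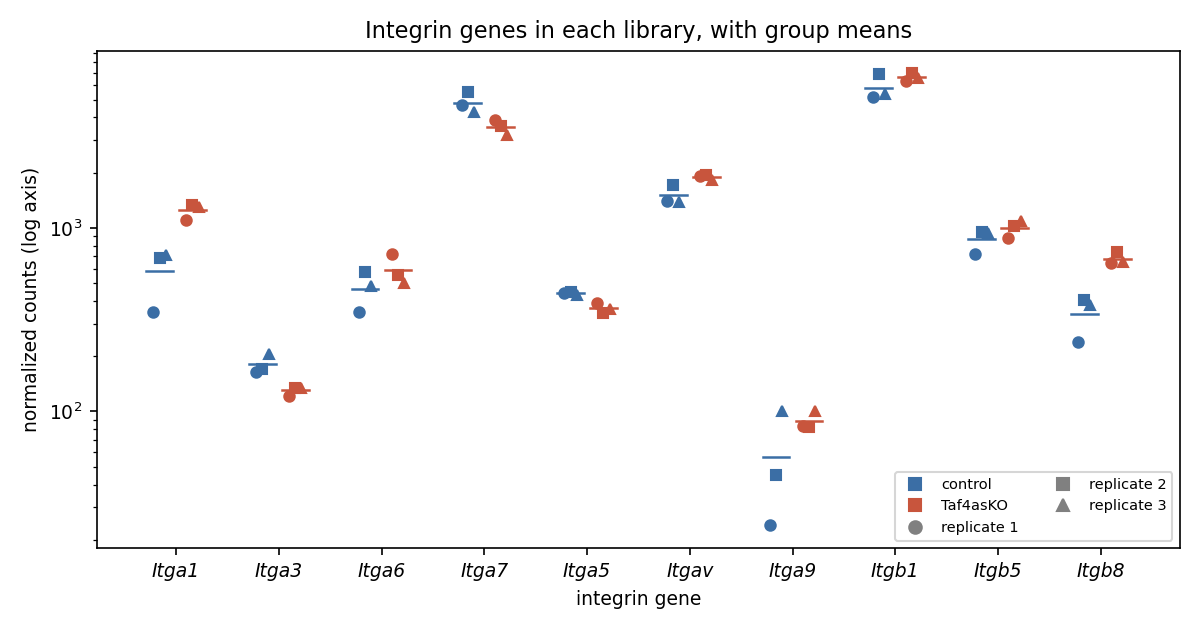
Normalized counts of the 10 integrin genes in each library on a logarithmic axis. Each symbol is 1 library of the control or Taf4asKO group, its shape gives the replicate number, and the short lines are group means. All 3 Taf4asKO libraries lie above all 3 control libraries for Itga1, Itgb8 and Itgav, and below them for Itga7, Itga3 and Itga5.

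The collagen receptor subunit gene Itga1 rose. Its product pairs with β1 and binds type IV and other collagens. Itga1 (ENSMUSG00000042284, chr13:114953096-115101964, minus strand) had 347, 682 and 712 normalized counts in the control libraries and 1105, 1335 and 1305 in Taf4asKO. Every Taf4asKO library was higher than every control library, and control replicate 1 was the lowest of the 6. The fold change was 2.25 (95% confidence interval 1.56 to 3.24; log2 fold change 1.17 ± 0.24 SE, limma adjusted p = 0.0110, n = 3 per group). Without control replicate 1 the log2 fold change was 0.84 (adjusted p = 0.00339). Without Taf4asKO replicate 2 it was 1.12 and missed the threshold (adjusted p = 0.0567). Of its exon bases, 3.68% are shared with Gm49395 on the same strand, where reads over both genes were left out by the authors' counting.

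For every marker list other than that of MuSCs, control replicate 1 also had the lowest sum of the 6 libraries. These sums were 3057 (Schwann), 953 (endothelial), 1994 (tendon), 4074 (fibro-adipogenic), 21121 (mural), 478 (immune) and 2246 (myofibre). Endothelial markers summed to between 953 and 1455 in control and between 1570 and 2109 in Taf4asKO. None of the 10 passed the test in limma, while 7 had an unadjusted p under 0.05 and 4 passed once the replicate number was a block. Over all genes tested, 12.6% passed in limma and 18.1% with the block. Tendon markers ranged from 1994 to 14055 in control and from 7109 to 16215 in Taf4asKO. Again none of the 6 passed (0 had an unadjusted p under 0.05), and 4 did with the block. Immune markers, of which 5 of 10 had a row, went from between 478 and 591 to between 700 and 947, with none called, 2 at an unadjusted p under 0.05 and 1 with the block. Of these 5, only Lyz2 had an estimate above 0 (94, 357 and 320 against 465, 729 and 483), and Cd79a, Cd68, Csf1r and Cd14 had estimates below 0, so the higher sum came from Lyz2. Fibro-adipogenic markers summed to between 4691 and 6813 in Taf4asKO against up to 7282 in control, with 1 of 10 lower, Dpt. Of the 10, 8 had estimates above 0 and 7 an unadjusted p under 0.05, and without Dpt the sums were 1797, 3137 and 4697 in control and 4078, 5926 and 5438 in Taf4asKO. With the block 7 passed, 6 of them higher. Mural markers summed to between 21121 and 27077 in control and between 22100 and 27280 in Taf4asKO, with 2 of 8 higher, 7 at an unadjusted p under 0.05 and 6 higher with the block. Most of this sum is Notch3, which is also on the MuSC list and had an estimate below 0. Without Notch3 the mural sums were 5283, 8756 and 9626 in control and 11363, 14607 and 13586 in Taf4asKO, with no overlap. Myofibre markers, 9 of 10 with a row, summed to between 2246 and 6090 and between 2677 and 3319, with 1 lower (Atp2a1). Genes named from these marker lists were picked after their values were seen. The part of these cells in the values of Itga1, Itgb8 and the other integrin genes was not tested.

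Of the 3 laminin receptor subunits, 1 passed the threshold (33.3%, against 12.6% of all genes tested). Itga7, the gene of the main laminin-binding α subunit of muscle and of the antigen of 1 of the 2 sorting gates, fell. Itga7 (ENSMUSG00000025348, chr10:128933818-128958282, plus strand) had 4665, 5480 and 4287 normalized counts in the control libraries and 3877, 3600 and 3212 in Taf4asKO. The lowest control library was above the highest Taf4asKO library. The fold change was 0.742 (95% confidence interval 0.620 to 0.889; log2 fold change -0.43 ± 0.12 SE, limma adjusted p = 0.0377). This call depended on single libraries. It was lost without control replicate 1 (-0.45, adjusted p = 0.0685), without control replicate 2 (-0.33, adjusted p = 0.0538), or when Taf4asKO replicate 1 (-0.49, adjusted p = 0.0587), replicate 2 (-0.44, adjusted p = 0.125) or replicate 3 (-0.36, adjusted p = 0.165) was left out. It held without control replicate 3 (-0.51, adjusted p = 0.0301). Whether the antibody gate affected this value was not tested.

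Itga3 and Itga6 did not pass the threshold. Itga3 (chr11:95044474-95076801, minus strand), whose product binds laminins of epithelial basement membranes, had 164, 171 and 206 normalized counts in the control libraries and 122, 135 and 135 in Taf4asKO. The groups did not overlap, and the log2 fold change was -0.46 ± 0.15 SE (limma adjusted p = 0.0796). Itga6 (chr2:71786940-71856771, plus strand), whose product forms laminin receptors with β1 or β4, had 348, 572 and 480 in control and 722, 551 and 504 in Taf4asKO. Its groups overlapped, and the estimate pointed the other way (0.36 ± 0.19 SE, adjusted p = 0.252, 95% confidence interval -0.07 to 0.78). Leaving out 1 library gave values between 0.16 (without control replicate 1) and 0.52 (without control replicate 2, adjusted p = 0.0865), none of which passed.

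Among the 4 RGD receptor subunits only Itgb8 passed the threshold (25%, against 12.6% of all genes tested). Its product pairs with αv and binds the latent form of TGF-β. Itgb8 (ENSMUSG00000025321, chr12:119158022-119238802, minus strand) had 240, 405 and 379 normalized counts in the control libraries and 644, 740 and 653 in Taf4asKO. All Taf4asKO libraries were above all control libraries, and control replicate 1 was again the lowest. The fold change was 2.03 (95% confidence interval 1.53 to 2.70; log2 fold change 1.02 ± 0.18 SE, limma adjusted p = 0.00642). Without control replicate 1 it was 0.79 on the log2 scale (adjusted p = 0.00505), and leaving out any other library gave values between 0.96 and 1.17 that all passed.

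The other 3 RGD receptor subunits did not pass. Itgav (chr2:83724397-83806916, plus strand), the common αv subunit, had 1397, 1725 and 1388 normalized counts in the control libraries and 1914, 1946 and 1823 in Taf4asKO. The groups did not overlap, but the log2 fold change of 0.34 ± 0.11 SE was under the fold limit (limma adjusted p = 0.0646). Control replicate 2 decided this: without it Itgav passed (0.44, adjusted p = 0.00905). Of its exon bases, 5.90% overlap Gm13684 on the opposite strand, and the strand setting of the counting is not given in the sources used here.

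Itga5 (chr15:103344286-103366763, minus strand) encodes the α subunit of the classical fibronectin receptor. It had 444, 446 and 433 normalized counts in the control libraries and 388, 343 and 362 in Taf4asKO. These groups did not overlap either, and the estimate was -0.28 ± 0.11 SE (limma adjusted p = 0.124). Itgb5 (chr16:33829665-33949153, plus strand), an αv partner in vitronectin binding, had 718, 945 and 941 in control and 885, 1027 and 1091 in Taf4asKO. Its libraries overlapped (0.21 ± 0.13 SE, adjusted p = 0.331, 95% confidence interval -0.09 to 0.51), and the estimate was 0.08 without control replicate 1.

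Itga9 and Itgb1 did not pass the threshold. Itga9 (chr9:118606690-118901003, plus strand), whose product binds tenascin-C and VCAM-1, was the least abundant of the 10, with 24, 45 and 101 normalized counts in the controls and 83, 82 and 100 in Taf4asKO. Control replicate 3 lay above all Taf4asKO libraries, and the log2 fold change was 0.86 ± 0.42 SE (limma adjusted p = 0.205). Without that library Itga9 passed (1.39, adjusted p = 0.0210), whereas without control replicate 1 it was at 0.38 on the log2 scale (adjusted p = 0.510). Itgb1 (chr8:128685654-128733200, plus strand) had 5141, 6895 and 5361 in control and 6359, 6958 and 6598 in Taf4asKO. Its groups overlapped through control replicate 2, and the estimate was 0.21 ± 0.12 SE (adjusted p = 0.291, 95% confidence interval -0.06 to 0.47). Without that library the log2 fold change was 0.34 (adjusted p = 0.0266), under the fold limit, and without control replicate 1 it was 0.13 (adjusted p = 0.601).

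**Figure D2:**
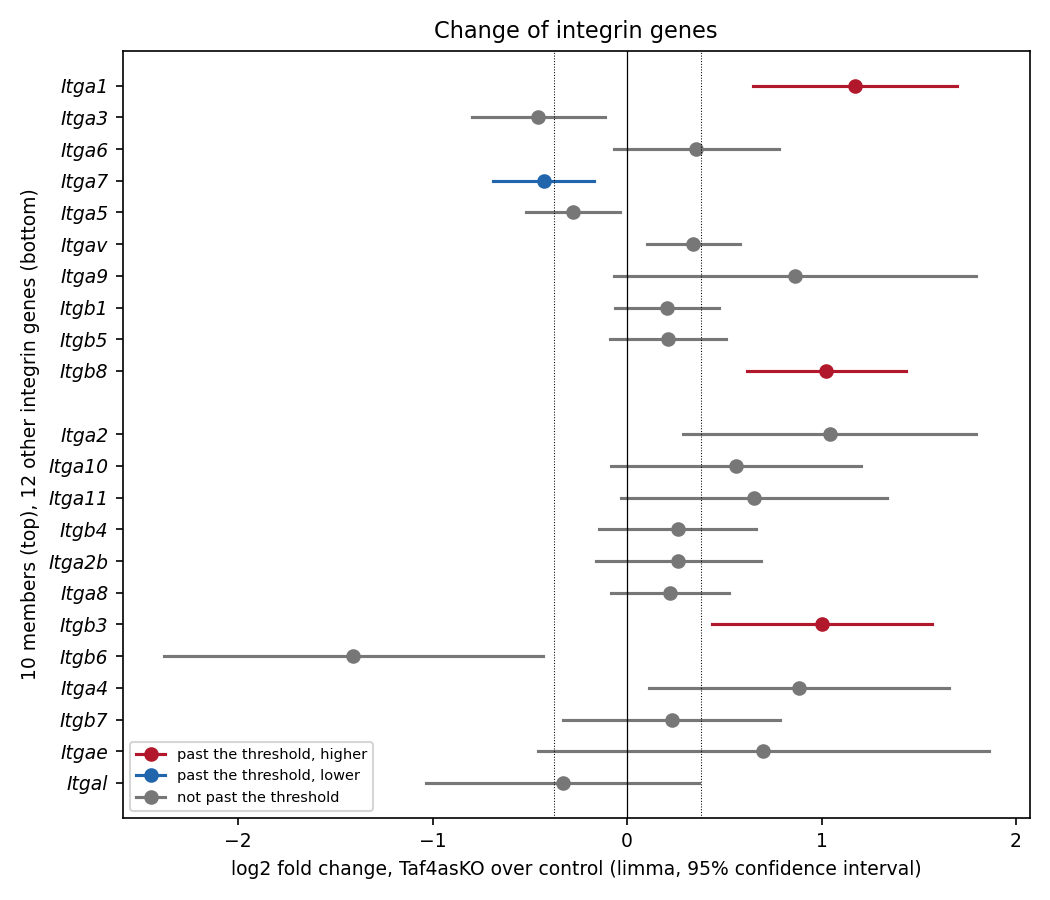
Log2 fold changes (Taf4asKO against control, log2(value + 1) scale) of the 10 integrin genes (top) and of 12 other integrin genes (bottom). Points are limma estimates, lines are 95% confidence intervals, dotted lines mark the fold limit and colour marks genes past the threshold. Among the 10, Itga1 (1.17) and Itgb8 (1.02) lie farthest to the right, and Itga3 (-0.46) and Itga7 (-0.43) farthest to the left.

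To compare the subunits with each other, normalized counts were divided by the exon length of each gene in kilobases. In control, Itgb1 had the highest level at 1421 ± 234 normalized counts per kilobase (SD, n = 3). It was followed by Itga7 at 594 ± 75.3, Itgb5 at 244 ± 36.6, Itgav at 140 ± 17.9, Itga5 at 89.4 ± 1.42 and Itga6 at 51.7 ± 12.5. Itga3 at 31.6 ± 3.94, Itga1 at 31.2 ± 10.9 and Itgb8 at 30.9 ± 8.02 were close together. The ranges of Itga3 and Itga1 overlapped, as did those of Itga1 and Itgb8, so their order is not resolved. Itga9 was lowest at 7.37 ± 5.18.

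In Taf4asKO the order at the top was the same, with Itgb1 at 1627 ± 73.9 normalized counts per kilobase, Itga7 at 440 ± 41.3, Itgb5 at 282 ± 29.7 and Itgav at 176 ± 5.94. Itga5 (73.9 ± 4.58), Itga1 (67.1 ± 6.72), Itga6 (65.6 ± 12.7) and Itgb8 (61.4 ± 4.79) followed, and each overlapped its neighbour in this order. Itga3 stood below them at 22.9 ± 1.31 and Itga9 at 11.5 ± 1.32. With the length of the longest transcript in place of all exons, the control level of Itga7 was 1197 ± 152, against 1520 ± 250.5 for Itgb1. Itga6 (108) then came before Itga5 (99.9) in control and Itga3 (37.1) came after Itga1 (52.9) and Itgb8 (40.6).

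The share of each α subunit in the summed level per kilobase of the 7 α genes does not depend on the scaling between libraries. Itga7 made up 65.1%, 63.6% and 59.7% of this sum in the control libraries and 52.8%, 51.6% and 49.5% in the Taf4asKO libraries. The groups did not overlap, and the difference of the means was -11.5 percentage points (exact permutation test, two-sided, p = 0.1, adjusted p = 0.175). With 3 libraries per group 0.1 is the smallest p that this test can give, so no share could pass 0.05. Itgav took 14.8% ± 0.278 in control and 20.6% ± 0.833 in Taf4asKO (SD, n = 3 per group; exact permutation p = 0.1). Itga1 took 3.29% ± 1.11 and 7.87% ± 1.16 (exact permutation p = 0.1, n = 3 per group), and Itga6 took 5.43% ± 0.936 and 7.62% ± 1.04, with the same p and no overlap. The 7 shares of a library add up to a fixed whole, so a lower share of Itga7 by itself raises the others. The share of a gene is therefore not a separate measure of its change. The normalized counts of Itga6 overlapped between the groups (limma adjusted p = 0.252). Shares of Itga3, Itga5 and Itga9 overlapped between the groups. Between libraries with the same replicate number, the share was lower in Taf4asKO in 3 of 3 pairs for Itga3 and Itga5 and higher in 3 of 3 for Itga9, which was not tested.

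**Figure D3:**
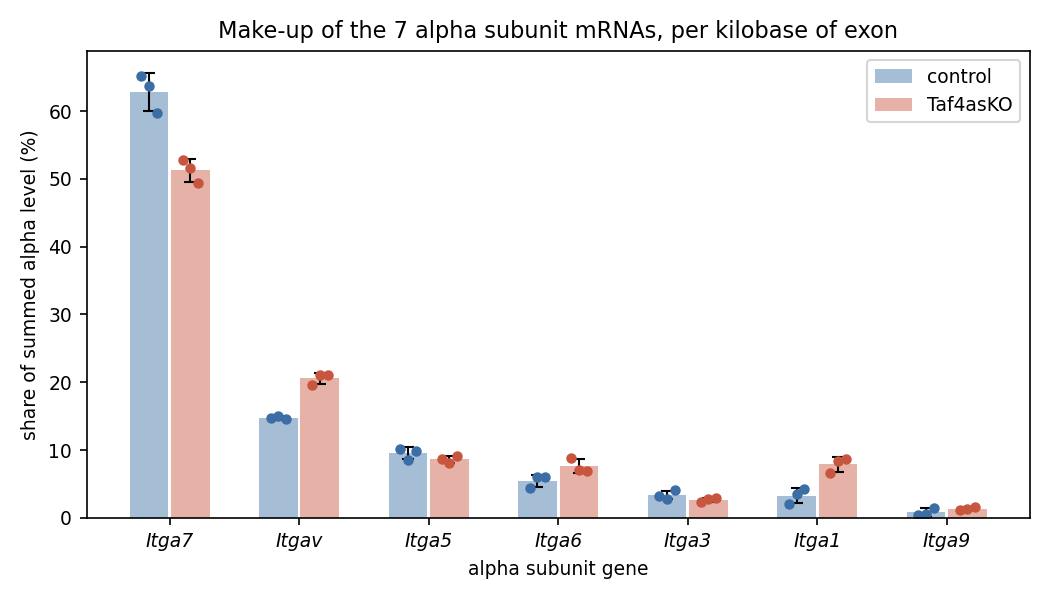
Share of each α subunit gene in the summed normalized counts per kilobase of the 7 α genes, in percent. Bars are group means, error bars are SD (n = 3) and points are the 6 libraries. The Itga7 share lies between 59.7% and 65.1% in control and between 49.5% and 52.8% in Taf4asKO.

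Of the 17 other integrin genes listed, 13 had a row and 12 were tested. Itgb3, which encodes the αv partner in the vitronectin receptor, was the only one past the threshold (8.33%, against 12.6% of all genes tested). It had 64, 115 and 96 normalized counts in the control libraries and 135, 230 and 186 in Taf4asKO, without overlap (log2 fold change 1.0 ± 0.26 SE, limma adjusted p = 0.0295). The call was lost without control replicate 1 (0.77, adjusted p = 0.0692), control replicate 3 (1.06, adjusted p = 0.0515), Taf4asKO replicate 2 (0.82, adjusted p = 0.137) and Taf4asKO replicate 3 (0.98, adjusted p = 0.110).

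With the replicate number as a block, 4 of the 12 passed, against 18.1% of all genes tested. They were Itgb3, Itga2, Itga11 and Itgb6. Itga2, a collagen receptor subunit whose gene is on chromosome 13 like Itga1, had 56, 121 and 153 normalized counts in the control libraries and 154, 264 and 226 in Taf4asKO. Its log2 fold change was 1.04 (limma adjusted p = 0.0715, and 0.00288 with the block). Without control replicate 3 it passed at 1.34 (adjusted p = 0.0353), and without control replicate 1 it was at 0.62 (adjusted p = 0.134). Itga11, another collagen receptor subunit, was at 0.65 (adjusted p = 0.193, and 0.0333 with the block, and 0.37 on the log2 scale without control replicate 1). Itgb6, an αv partner of epithelia, had 24, 28 and 16 in control and 11, 10 and 4 in Taf4asKO (-1.41, adjusted p = 0.0612, and 0.0248 with the block). Itga4, a VCAM-1 receptor subunit, was at 0.88 (adjusted p = 0.124, and 0.0521 with the block). It did not pass in either fit, but did without control replicate 3 (1.25, adjusted p = 0.0335), and was at 0.47 without control replicate 1 (adjusted p = 0.283).

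The last 7 of these genes did not pass in either fit. Itgb4, the partner of α6 in hemidesmosomes, had an estimate of 0.26 (limma adjusted p = 0.38) and Itga8, an RGD receptor subunit, one of 0.22 (adjusted p = 0.320). Itga10 was at 0.56 (adjusted p = 0.234), but 33.5% of its exon bases are shared with Gm42957, which makes its value uncertain. Itgb4, Itga8 and Itga4 share 7.66%, 5.05% and 8.04% of their exon bases with a gene on the opposite strand. Itga2b was at 0.26 (adjusted p = 0.401), and the subunits known from leukocytes, Itgae (0.70, adjusted p = 0.412), Itgal (-0.33, adjusted p = 0.533) and Itgb7 (0.23, adjusted p = 0.597), had between 2 and 85 normalized counts per library. With 1 library left out, values ranged from 0.11 to 0.46 for Itgb4, 0.12 to 0.33 for Itga8 and 0.28 to 0.78 for Itga10. They ranged from 0.14 to 0.34 for Itga2b, 0.43 to 0.95 for Itgae, -0.41 to -0.24 for Itgal and -0.03 to 0.40 for Itgb7.

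The genes of the ligands were counted in lists by receptor class. Of 18 collagen chains, 2 rose and 1 fell, which is 16.7% against 12.6% of all genes tested, and their median log2 fold change was 0.17. Col3a1, the chain of fibrillar type III collagen, had 46225, 47112 and 47700 normalized counts in the control libraries and 13082, 17573 and 16995 in Taf4asKO (log2 fold change -1.58, limma adjusted p = 0.000126). Col4a2, a basal lamina chain, rose from 8413, 11405 and 9985 to 15429, 16949 and 18838 (0.79, adjusted p = 0.00450). Col4a1, which is its obligate partner chain and was picked after its values were seen, was at 0.08 (adjusted p = 0.678). Col18a1 also rose (0.54, adjusted p = 0.0361), with calls lost without control replicate 1 (0.39) and Taf4asKO replicates 2 (0.51) and 3 (0.45). With the replicate block 8 of 18 passed, 7 of them higher, against 18.1% of all genes. Without control replicate 3 the count was 5, and it was 2 without control replicate 1, Taf4asKO replicate 2 or Taf4asKO replicate 3.

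Of 11 laminin chains, 2 rose and 1 fell (27.3%, against 12.6% of all genes tested), with a median of -0.25. Lamb1, the β1 chain, had 493, 1086 and 924 normalized counts in the control libraries and 1439, 1630 and 1584 in Taf4asKO (log2 fold change 0.97, limma adjusted p = 0.0258). Lama4, known from vascular basement membranes, rose likewise (0.89, adjusted p = 0.0406), and Lama5 fell from 1825, 2615 and 1570 to 1133, 1323 and 1368 (-0.62, adjusted p = 0.0386). Lama2, the α chain of the myofibre basal lamina, was at 0.02 (adjusted p = 0.900), a gene picked after its values were seen. No laminin chain passed when any of the 3 Taf4asKO libraries was left out, 2 passed without control replicate 1 and 5 without control replicate 2. The 2 that passed without control replicate 1 were Lamb1 (0.63) and Lama4 (0.55), and Lama5 was at -0.41 without control replicate 2.

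Of 18 RGD ligands tested, 4 rose and 1 fell (27.8%, against 12.6% of all genes tested), and their median was 0.59. This list goes by receptor class, and whether each protein on it carries the Arg-Gly-Asp tripeptide was not checked. Thbs2, the matricellular protein thrombospondin 2, fell from 7436, 12273 and 9095 normalized counts to 1320, 1941 and 1621 (log2 fold change -2.55, limma adjusted p = 8.23e-05). Cyr61 (CCN1) had 4722, 3515 and 6303 in control and 13293, 10527 and 9922 in Taf4asKO (1.24, adjusted p = 0.00317). Nid1, which links laminin to type IV collagen, rose from 1311, 2060 and 2215 to 3553, 3888 and 4809 (1.16, adjusted p = 0.00410). Edil3 rose from low values (1.47, adjusted p = 0.0332), with the call lost without control replicate 1 (1.02, adjusted p = 0.0506) or when Taf4asKO replicate 1, 2 or 3 was left out (adjusted p = 0.0761, 0.139 and 0.103). The fifth gene, Tgfb1, whose latent form is a ligand of αvβ8, was named after its values were seen: it had 136, 119 and 137 in control and 179, 201 and 198 in Taf4asKO (0.56, adjusted p = 0.0319). Tgfb3, on the same list and also named after its values were seen, had more counts and did not pass. It had 1513, 1590 and 1748 in control and 1404, 1464 and 1446 in Taf4asKO (-0.17, limma adjusted p = 0.272). With the replicate block 12 of 18 passed, 11 of them higher, against 18.1% of all genes. Fn1 (fibronectin), named after its values were seen, was among them (0.85, limma adjusted p = 0.0135 with the block and 0.171 without). In the same fit 7 Schwann, 6 fibro-adipogenic, 6 mural, 4 endothelial and 4 tendon markers passed higher, and their part in the values of the ligands was not tested. The count was 8 without control replicate 2, 10 without control replicate 3, and 3 without Taf4asKO replicate 2 or replicate 3.

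Of 11 ligands known for α9, 1 rose and 1 fell (18.2%, against 12.6% of all genes tested), with a median of 0.02. Vcam1, a surface protein of MuSCs that binds α4 and α9 integrins, had 3092, 3157 and 3046 normalized counts in the control libraries and 4772, 5395 and 5401 in Taf4asKO (log2 fold change 0.74, limma adjusted p = 0.00106). Emilin1, an elastic fibre protein, fell from 1577, 2090 and 1602 to 649, 832 and 880 (-1.16, adjusted p = 0.00122). With the replicate block 4 of 11 passed, against 18.1% of all genes.

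Inside the cell, 6 of 39 tested genes of the adhesion complex passed the threshold, 3 in each direction. This share of 15.4% is near the 12.6% of all genes tested, and the median of the list was 0.0049. Tln2, the talin of muscle, had 9826, 10101 and 9817 normalized counts in the control libraries and 7322, 7375 and 7080 in Taf4asKO (log2 fold change -0.45, limma adjusted p = 0.00914). Arhgef7 (-0.62, adjusted p = 0.00584), an exchange factor of Rac and Cdc42, and Actn1 (-0.47, adjusted p = 0.0158), an actin crosslinker, also fell. Vcl (vinculin, 0.42, adjusted p = 0.020), Nedd9 (0.93, adjusted p = 0.0248) and Tns3 (tensin 3, 0.79, adjusted p = 0.0405) rose. With the replicate block 9 of 39 passed, against 18.1% of all genes, and 8 did without control replicate 3. The count fell to 4 without control replicate 1, 3 without Taf4asKO replicate 1 and 1 without Taf4asKO replicate 2 or replicate 3.

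Of 20 other matrix receptors and receptor partners, 3 rose and 1 fell (20%, against 12.6% of all genes tested), with a median of 0.21. Sgca, the α-sarcoglycan of the dystrophin complex, had 389, 421 and 425 normalized counts in the control libraries and 127, 108 and 101 in Taf4asKO (log2 fold change -1.87, limma adjusted p = 8.23e-05). Cd47, an integrin-associated protein and thrombospondin receptor, rose from 910, 1178 and 1147 to 2179, 2306 and 2415 (1.10, adjusted p = 0.000499). Adgrg6, an adhesion receptor with a role in Schwann cells, rose from 114, 185 and 158 to 283, 324 and 311 (1.03, adjusted p = 0.00584). Sdc4, a heparan sulfate proteoglycan found on MuSCs, had 5564, 5586 and 5814 in control and 12662, 9579 and 9266 in Taf4asKO (0.88, adjusted p = 0.00211). With the replicate block 9 of 20 passed, 8 of them higher, against 18.1% of all genes. The count was 7 without control replicate 2. Cspg4, named after its values were seen, passed with the block and is also on the mural list. The part of other cell types in the values of these receptors was not tested.

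Tetraspanins, membrane proteins that associate with laminin-binding integrins, were represented by 12 tested genes, of which 3 rose and 1 fell (33.3%, against 12.6% of all genes tested), with a median of 0.24. Cd151, a direct partner of α3, α6 and α7, had 614, 887 and 692 normalized counts in the control libraries and 1212, 1170 and 1179 in Taf4asKO (log2 fold change 0.72, limma adjusted p = 0.00756). Cd82 fell from 3910, 4178 and 3269 to 2654, 2609 and 2869 (-0.48, adjusted p = 0.0194). Tspan6 (0.74, adjusted p = 0.0304) and Tspan9 (1.05, adjusted p = 0.0436) rose, the latter named after its values were seen. Only 1 of the 12 passed without control replicate 1 or any 1 of the 3 Taf4asKO libraries.

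**Figure D4:**
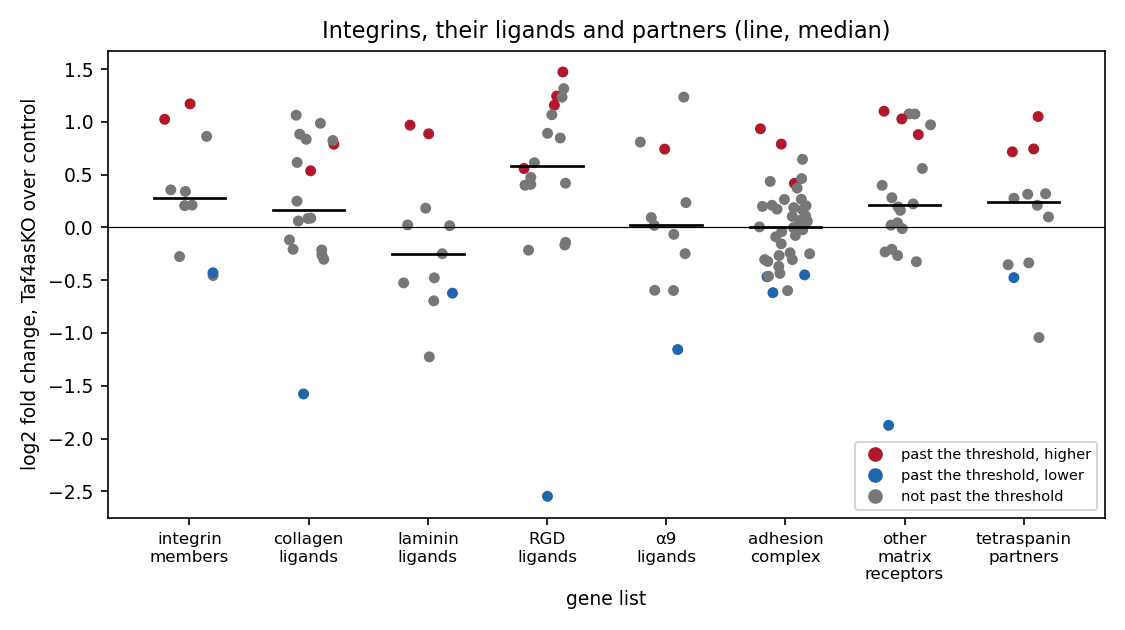
Log2 fold changes (Taf4asKO against control) of the tested genes in each list, 1 point per gene and spread sideways at random, with the genes past the threshold in colour and the list median as a line. The RGD ligands have the highest median among the lists of ligands and receptors other than the integrins themselves (0.59), against 0.0040 over all genes tested.

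Under the alternatives tried, the estimates of the 10 integrin genes kept their direction. The call of Itga1, Itgb8 and Itga7 was lost with limma treat, which tests against the fold limit itself (adjusted p = 0.101, 0.0852 and 1.0), and without the intensity trend (adjusted p = 0.0789, 0.0590 and 0.144).

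**Figure D5:**
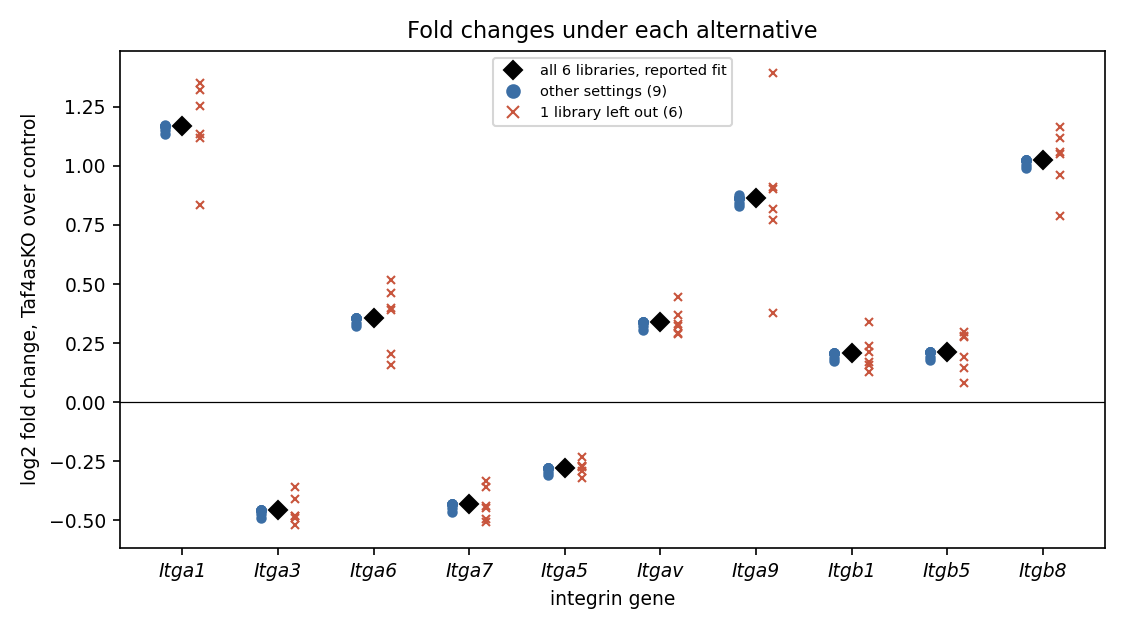
Log2 fold changes of the 10 integrin genes in the fit reported (diamonds) and under 15 alternatives, of which 9 change a setting (circles) and 6 leave out 1 library (crosses). For Itgb8 the crosses lie between 0.79 and 1.17 and for Itga7 between -0.51 and -0.33, and no gene changes sign.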

How the data were processed

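RNA of sorted MuSCs was profiled with the SMARTer Stranded Total RNA-Seq Pico kit in 3 control and 3 Taf4asKO libraries. According to the study's methods and the submitters' processing notes, the authors trimmed reads with Trimmomatic 0.39, aligned them to mm10 with STAR 2.6.0c, removed reads with several alignments, counted reads over exons with featureCounts 1.6.0, leaving out reads over more than 1 gene, and normalized with DESeq2 1.14.1. The deposited table holds no raw reads: its values were treated as a score, since they are counts that the authors normalized by size factors and rounded to whole numbers. A count model was therefore not used. Size-factor scaling does not remove differences in cell composition. The table had 0 value columns without a sample.

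Genes with a mean of at least 5 were tested with limma 3.58.1 (R 4.3.3; two-sided, empirical Bayes moderation with a trend on intensity) on log2(value + 1), which understates changes of low genes. The threshold was a Benjamini-Hochberg adjusted p under 0.05 with a fold change of at least 1.3 either way. Lengths came from GENCODE M21 (mm10) and promoter windows from RefSeq. α subunit shares were compared by exact permutation over libraries.

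Samples were grouped by their titles, which number replicates 1 to 3 in both groups. Deviations from the group means correlated by 0.235, 0.126 and 0.150 between same-numbered libraries, all above 0.1. Between libraries with different numbers the correlations lay between -0.149 and 0.0141. The numbers were therefore taken as a possible pairing, and 1 alternative fit held the replicate number as a block. Neither the titles nor the study state such a pairing. It was taken from the same values that the fit with the block then tested, so calls with the block are not independent support for it. Further alternatives were 3 scalings, a pseudocount of 0.1, no filter, a mean of at least 20, limma treat, no intensity trend, the longest transcript as length, and leaving out each library. Genes named were all 10 members, the other integrin genes tested, Taf4, and from each list up to 3 falls and 3 rises past the threshold with a mean of at least 50. Genes named after their values were seen are marked as such in the text, and marker genes come from lists. The members and lists were chosen with earlier results of these data known.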

Additional observations from a re-analysis of the deposited data

How the results depend on the processing

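Of 150 values of the 10 integrin genes under the alternatives, 136 kept their direction and side of the threshold, 12 lost and 2 gained a call, and none reversed. Of 561 values of the 38 other named genes, 471 kept both, 84 lost and 5 gained a call, and 1 reversed: Itgb7 without control replicate 2 (-0.033, with values up to 0.40 when other libraries were left out). The 3 scalings, the pseudocount of 0.1 and both other filters kept every count of the integrin genes and lists within 1.5 times the reported one. Over all genes, 3355 passed with the replicate block, 435 with limma treat and 941 without the intensity trend, against 2347 as reported.

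The replicate block, which pairs the libraries by number, left 3 integrin genes past the threshold (1 lower, 2 higher). It gave 4 other integrin genes, 8 collagen chains, 12 RGD ligands, 4 α9 ligands and 9 other matrix receptors. It changed no call of the 10 integrin genes.

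With limma treat and without the intensity trend, 0 of the 10 integrin genes passed in limma in either direction, while 2 and 5 had an unadjusted p under 0.05. The counts were also 0 in both fits for the other integrin genes (3 and 3 at an unadjusted p under 0.05), laminin chains (2 and 4), the adhesion complex (3 and 8) and tetraspanins (3 and 6). With treat, 1 collagen chain, 3 RGD ligands, 1 α9 ligand and 2 other matrix receptors passed. Without the trend, 1 collagen chain, 2 RGD ligands, 2 α9 ligands and 4 other matrix receptors did. limma treat tests a stricter null by construction, and the cause of the loss without the trend was not tested.

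Leaving out 1 library gave between 1 and 4 integrin genes past the threshold, with 0 to 1 lower and 1 to 3 higher. It gave 0 to 2 other integrin genes, 2 to 5 collagen chains, 0 to 5 laminin chains, 3 to 10 RGD ligands, 2 α9 ligands, 1 to 8 genes of the adhesion complex, 4 to 7 other matrix receptors and 1 to 6 tetraspanins. Over all genes, 1710, 3096 and 2171 passed without control replicate 1, 2 or 3, and 1249, 980 and 956 without Taf4asKO replicate 1, 2 or 3. Differences in α subunit share moved by less than the larger of the 2 group SDs with the longest transcript as length. The same held without any library, but that outcome was fixed in advance. Leaving out 1 of 3 libraries cannot move a group mean by as much as the SD of its group. For Itgav the difference was 5.20 points with the longest transcript against 5.81, a move above the control SD of 0.278. The estimates of Itga5, Itga6, Itgav, Itgb1 and Itgb5 lay under the fold limit, so they could not be called whatever their p.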
